A study of Homo sapiens with 4 samples.

Results

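The YAP/TEAD pathway and its targets were represented by 10 genes: the co-activators YAP1 and WWTR1 (the gene of TAZ), the transcription factors TEAD1 and TEAD4, the kinase gene LATS2, the angiomotin family gene AMOTL2 and the target genes CCN1, CCN2, ANKRD1 and AXL. They were taken by symbol from the annotation of the array, and every probe set annotated to 1 of these symbols alone was kept. This gave 22 of the 54613 probe sets tested, for 10 of 19775 named genes. No probe set with several symbols contained a member. RNA came from SW480, an established human colorectal cancer line, transduced to change HOXA5, a homeobox transcription factor. Of the 4 Affymetrix arrays, 2 carried the label HOXA5 knock-down and the other 2 HOXA5 overexpressing, with no dose or time given. No untransduced or vector control array was analysed here, so each difference below is overexpressing minus knock-down and cannot be assigned to either manipulation. The labels name neither the constructs nor whether a clone or a pool was used, nor whether the replicates were separate cultures, so p-values reflect only how far these arrays spread, and that spread may be technical.

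In Hippo signalling, a kinase cascade that ends in LATS1 and LATS2 phosphorylates YAP and TAZ and keeps them out of the nucleus. When the cascade is off, YAP and TAZ bind TEAD factors on DNA and switch on genes such as CCN1, CCN2 and ANKRD1. Some targets, among them LATS2 and AMOTL2, encode proteins that restrain YAP in turn. In the intestine the pathway is known for its part in regeneration after injury and in tumour growth.

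Of CCN1, CCN2, ANKRD1 and AXL, the 4 genes listed here as targets, 2 rose and the other 2 did not pass the test. LATS2 and AMOTL2, targets that restrain YAP, did not pass either. ANKRD1, an ankyrin repeat protein gene, rose 3.31-fold from the low end of the scale, so that the size depends on the floor of the array, and CCN2, encoding a secreted matrix-associated protein also called CTGF, rose 2.29-fold in the overexpressing arrays, whereas CCN1, the sister gene of CCN2, had overlapping groups. All 3 YAP1 probe sets were slightly higher in the overexpressing arrays, without overlap between groups, but none passed the test. Over all probe sets 18.7% were higher without overlap, and the 3 share the RNA of the same gene. Of the 22 probe sets, 2 rose, none fell and 20 did not pass an adjusted p of 0.05 (limma, Benjamini-Hochberg over all probe sets). At an unadjusted p under 0.05 in limma there were 7, the 2 that rose among them, each with a difference above 0. Of all probe sets, 14.6% had such an unadjusted p. At the adjusted p of 0.05, 1.97% of all probe sets passed, 1.36% as rises and 0.613% as falls.

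The promoters of the 2 genes that rose are shown because both hold several copies of the core motif that TEAD factors recognise, GGAATG. The sequences are the 250 bases before the annotated start in RefSeq (GRCh38.p14), read 5′ to 3′ on the strand of the gene, with matches to the motif on that strand (GGAATG) or on the other (CATTCC) in capitals. The CCN2 sequence lies at chr6:131951373-131951622 and the ANKRD1 sequence at chr10:90921088-90921337, both on the minus strand.
CCN2: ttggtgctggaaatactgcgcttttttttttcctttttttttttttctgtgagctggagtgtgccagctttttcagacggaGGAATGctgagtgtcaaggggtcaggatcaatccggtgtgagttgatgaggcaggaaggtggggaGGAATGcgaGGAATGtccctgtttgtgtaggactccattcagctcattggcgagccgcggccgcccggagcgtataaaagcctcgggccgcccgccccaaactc
ANKRD1: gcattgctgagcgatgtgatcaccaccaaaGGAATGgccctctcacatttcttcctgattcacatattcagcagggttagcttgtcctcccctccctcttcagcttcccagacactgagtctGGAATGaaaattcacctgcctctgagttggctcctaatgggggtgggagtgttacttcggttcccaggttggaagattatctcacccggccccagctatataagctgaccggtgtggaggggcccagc

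In CCN2 the motif began 169, 104 and 95 bases before the start, the last of these copies lying close together. In ANKRD1 it began 220 and 128 bases before the start. Windows of 300 bases, from 250 before to 50 after a start, were listed for 7 of the 10 genes. These were 10 windows, since WWTR1, AMOTL2 and AXL have an upstream and a downstream start. CCN1, TEAD1 and TEAD4 had no window, so their promoters were not searched. The motif was searched on both strands; copies can share a base with each other. It was found in 6 of these 10 windows and in 14.03% of all 35116 windows of that length. At least 2 copies were present in 1.37% of all windows and at least 3 in 0.128%. These shares are a description only, since the genes were listed as members of this pathway or its known targets. Whether the motif has a part in the expression differences was not tested. YAP1, LATS2, the downstream start of AMOTL2 and the downstream start of AXL each held a single copy, shown with 10 bases on either side.
YAP1, chr11:102110275-102110300, plus strand: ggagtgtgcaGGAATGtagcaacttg
LATS2, chr13:21061562-21061587, minus strand: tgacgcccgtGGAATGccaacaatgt
AMOTL2, chr3:134374501-134374526, minus strand: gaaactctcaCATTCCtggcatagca
AXL, chr19:41226533-41226558, plus strand: gactttgcacCATTCCactccctccg

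These copies began 162 bases before the start in YAP1, 69 before it in AMOTL2 and 212 before it in AXL, while that of LATS2 began at base 10 after the start. Those of AMOTL2 and AXL were on the opposite strand. The motif of AP-1, a factor known to share sites with TEAD, was searched as TGANTCA. N stood for any base, which is looser than TGACTCA or TGAGTCA. The loose form was found once, in ANKRD1, 195 bases before the start and clear of both GGAATG copies. There it read TGATTCA, which is neither of the stricter forms. In all windows the loose form was found in 7.71%, and the stricter forms were not counted alone. A match describes these letters only and does not show binding.

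**Figure D1:**
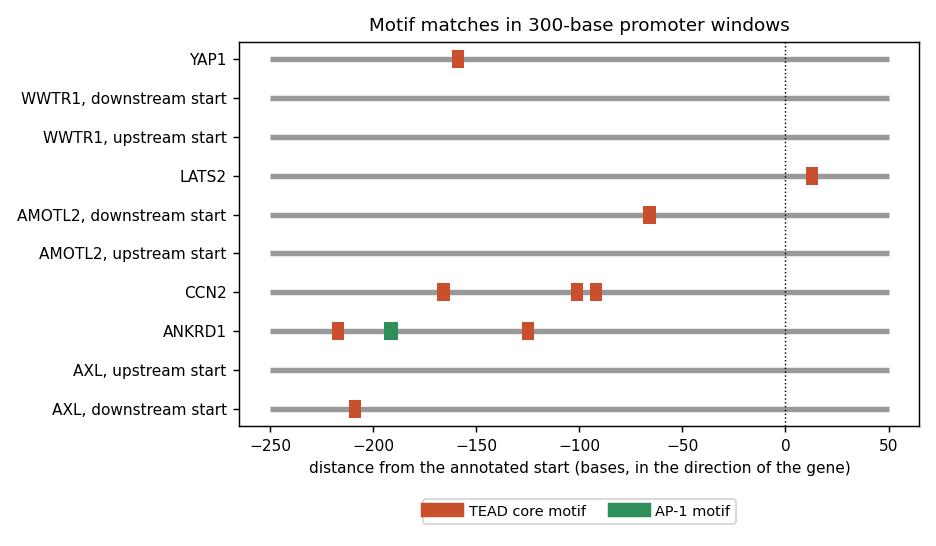
Positions of matches to the TEAD core motif and the loose AP-1 form TGANTCA in the 10 promoter windows listed for 7 of the genes. Positions are in bases from the annotated start (dotted line). CCN2 holds 3 TEAD matches and ANKRD1 holds 2, the other windows 1 or none. CCN1, TEAD1 and TEAD4 had no window and were not searched.

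Values are RMA log2 expression, so a difference of 1 is a doubling. No probe set was annotated to HOXA5 alone. Probe sets with several symbols or none were not used to read it, so the manipulation itself was not checked here. Arrays of the same group correlated at 0.997 over all probe sets and arrays of different groups at 0.991 to 0.993. Of 7 markers of colorectal epithelium, KRT8 and KRT18 were bright on all arrays (12.84 to 13.03 and 13.79 to 13.86), and 2 of the 7, EPCAM and KRT19, rose in the overexpressing arrays on their brightest probe sets. VIL1, the villin gene, rose on 2 of its 4 probe sets, by 0.78 and 0.85 (limma, adjusted p = 0.011 and 0.015), but not on the brightest (0.02). Both probe sets of CDX2, an intestinal homeobox gene, were higher without overlap (0.51 and 0.52) and did not pass. Over all probe sets 18.7% were higher without overlap. EPCAM was at 3.81 and 3.65 with knock-down and at 8.80 and 8.75 with overexpression. CDH1 was below the medians of all 4 arrays on both of its probe sets and did not pass (0.60 and 0.14). The mean level of the 7 markers was 7.51 to 7.56 with knock-down and 8.98 to 9.07 with overexpression. On their brightest probe sets EPCAM and KRT19 differed by 5.05 and 4.38, but KRT8, KRT18 and VIL1 by only -0.11, -0.04 and 0.02. The mean therefore does not describe every marker. None of 5 fibroblast, 3 endothelial and 3 blood cell markers passed in limma (0 at an unadjusted p under 0.05 as well), counted by the brightest probe set of each gene. A dimmer probe set of the fibroblast marker LUM, a matrix proteoglycan gene, did rise, from 2.48 and 2.66 to 4.82 and 4.65 (difference 2.16; limma, adjusted p = 0.00079), more than ANKRD1 or CCN2, while the brightest of LUM lay at 3.63 to 3.87 on all arrays. The fibroblast list lay at 5.62 to 5.66 and 5.63 to 5.74, the endothelial list at 6.46 to 6.57 and 6.51 to 6.60, and the blood list at 5.14 to 5.27 and 5.06 to 5.08. Markers of the same list differed on their brightest probe sets. PTPRC, the common leukocyte antigen, was below the lower quartile of all 4 arrays. CD14 was below the medians of all 4, while CD3E was above them at 6.48 to 6.71. The collagen gene COL1A1 stood at 9.31 to 9.57. In contrast, COL1A2, COL3A1 and LUM were below the medians of all 4 arrays, and DCN below the median of 1. The part of the epithelial marker and LUM differences in the results below was not tested, and in bulk RNA a change in the share of cells cannot be told apart from a change per cell.

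**Figure D2:**
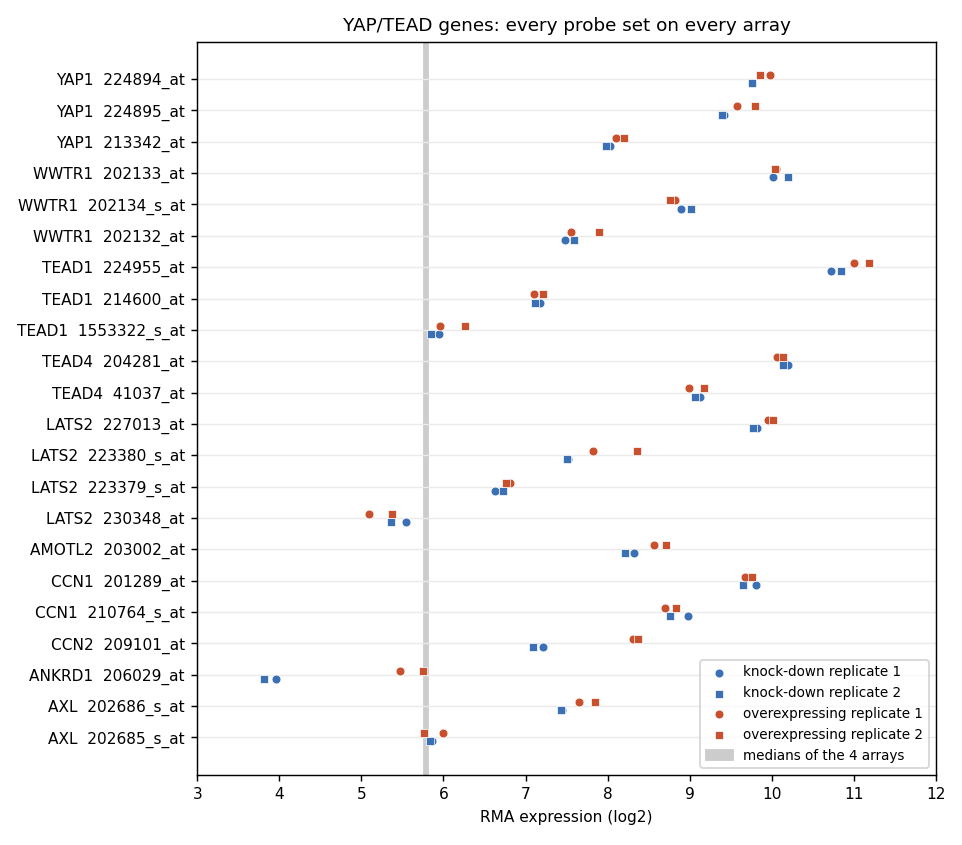
RMA expression (log2) of the 22 probe sets on each of the 4 arrays, with knock-down in blue, overexpressing in red and replicate 1 and 2 as circles and squares; the grey band spans the medians of the arrays. The groups lie far apart for CCN2 and ANKRD1. Of the other probe sets, LATS2 223380_s_at has the largest difference (0.57), and the rest lie closer together or mixed.

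The co-activators came first. On its brightest probe set (224894_at), YAP1 stood at 9.76 and 9.77 with knock-down and at 9.98 and 9.85 with overexpression. A second probe set (224895_at) gave 9.42 and 9.39 against 9.57 and 9.80, and the third (213342_at) gave 8.03 and 7.99 against 8.11 and 8.21. On each of the 3 both overexpressing arrays were above both knock-down arrays, as on 18.7% of all probe sets. The 3 share the RNA of the same gene. The differences were 0.16, 0.28 and 0.15 (limma, adjusted p = 0.50, 0.29 and 0.52), with 95% intervals that together ran from -0.06 to 0.53, so a doubling of YAP1 RNA lay outside all of them.

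WWTR1, the paralogue of YAP1, had differences on both sides of 0. The brightest (202133_at) was at 10.01 and 10.20 with knock-down and at 10.05 and 10.04 with overexpression, which lay between them. The next (202134_s_at) was lower in both overexpressing arrays, at 8.90 and 9.02 against 8.82 and 8.77. The dimmest (202132_at) was at 7.48 and 7.59 against 7.55 and 7.90, overlapping between groups. Differences were -0.06, -0.17 and 0.19, none past the threshold (limma, adjusted p = 0.86, 0.47 and 0.59).

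TEAD1 and TEAD4 encode DNA-binding partners of the co-activators. The brightest probe set of TEAD1 (224955_at) was at 10.73 and 10.84 with knock-down and at 11.00 and 11.18 with overexpression, a difference of 0.31 ± 0.10 (SE) without overlap (limma, adjusted p = 0.24). Another (1553322_s_at) was at 5.94 and 5.85 against 5.96 and 6.26, a difference of 0.22 (adjusted p = 0.50 in limma). The remaining one (214600_at) showed no such shift, at 7.18 and 7.11 against 7.11 and 7.21 (0.01). TEAD4 differed less: 204281_at gave 10.19 and 10.14 against 10.07 and 10.13, a difference of -0.07 with a 95% interval from -0.27 to 0.14. Its other probe set (41037_at) gave 9.12 and 9.07 against 9.00 and 9.18, overlapping between groups. Neither TEAD gene passed on any probe set.

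LATS2, the kinase that phosphorylates YAP and TAZ and is itself a target of theirs, had 4 probe sets. The brightest (227013_at) was at 9.82 and 9.77 with knock-down and at 9.95 and 10.02 with overexpression, a difference of 0.19 ± 0.08 (SE; limma, adjusted p = 0.37). The largest difference, 0.57 ± 0.17 (adjusted p = 0.21 in limma), came from 223380_s_at, where the knock-down arrays agreed at 7.52 and 7.51 but the overexpressing arrays lay apart at 7.82 and 8.36. Without the second overexpressing array this difference was 0.31. On 223379_s_at the values were 6.63 and 6.72 against 6.81 and 6.76. The dimmest, 230348_at, went the other way at 5.55 and 5.36 against 5.09 and 5.37, below the median of every array. No LATS2 probe set passed.

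AMOTL2, an angiomotin-like protein gene whose product binds YAP at cell junctions, had 1 probe set. It was at 8.32 and 8.22 with knock-down and at 8.56 and 8.71 with overexpression. Both overexpressing arrays were higher, by 0.37 ± 0.09 on average (SE, 95% interval 0.14 to 0.60), but the difference did not pass when adjusted over all probe sets (limma, adjusted p = 0.15).

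**Figure D3:**
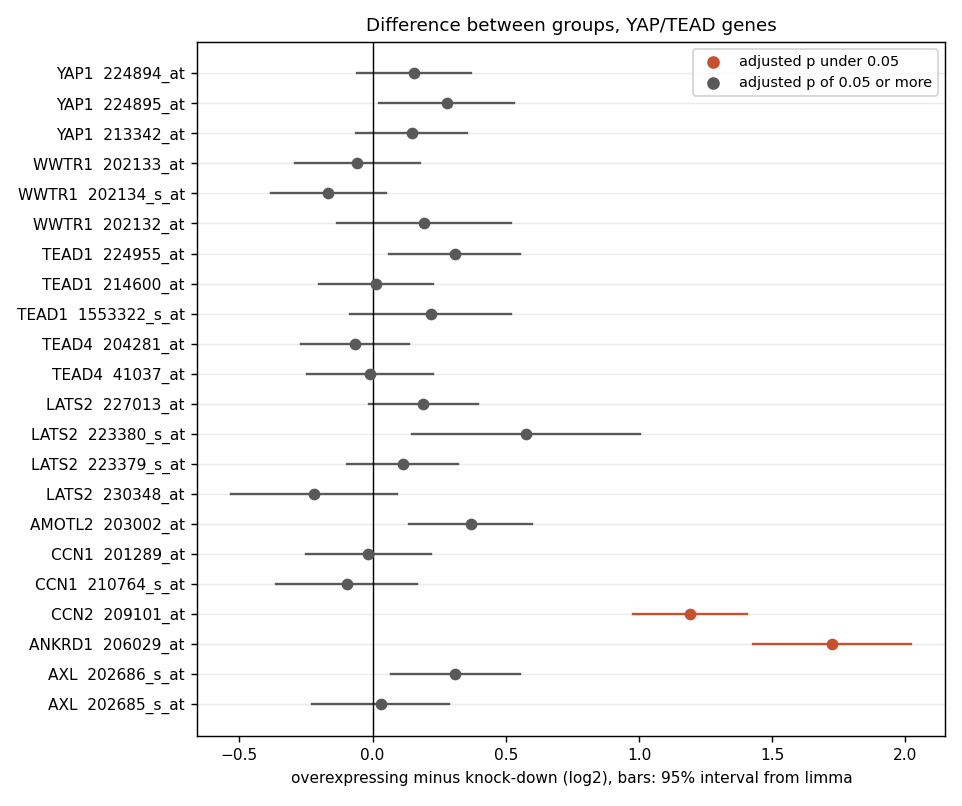
Difference between overexpressing and knock-down arrays (log2) for each of the 22 probe sets, with 95% intervals from limma; red points passed an adjusted p of 0.05. CCN2 at 1.19 and ANKRD1 at 1.73 stand apart from the other 20, whose differences run from -0.22 to 0.57.

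ANKRD1, used widely as a readout of YAP activity, had the largest difference. It was at 3.96 and 3.81 with knock-down and at 5.47 and 5.75 with overexpression. The difference was 1.73 ± 0.12 (SE, 95% interval 1.43 to 2.02; limma, adjusted p = 0.0025). Both knock-down values were below the lower quartile of their arrays (4.25 to 4.26) and all 4 values were below the medians of their arrays (5.77 to 5.81). RMA gives no detection call, so a fold that starts from such a low value depends on the floor of the scale.

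CCN2 was well within the scale in both groups. It was at 7.21 and 7.10 with knock-down and at 8.31 and 8.38 with overexpression. The difference of 1.19 ± 0.09 (SE, 95% interval 0.98 to 1.41; limma, adjusted p = 0.0028) was far larger than the gap between replicates. Of all 54613 probe sets, 379 differed by more in either direction than CCN2 and 156 by more than ANKRD1. Both calls were lost whichever array was left out, where few probe sets passed at all (15 to 61). Leaving out 1 array gave differences of 1.14 to 1.25 for CCN2 and 1.59 to 1.86 for ANKRD1, with adjusted p up to 0.15 and 0.13 in limma.

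CCN1, a secreted matricellular protein gene also called CYR61 and another widely used target, was well above the array medians in both groups. Its brighter probe set (201289_at) was at 9.81 and 9.65 with knock-down and at 9.67 and 9.77 with overexpression. The other (210764_s_at) was at 8.98 and 8.76 against 8.71 and 8.84. On both the groups overlapped, with differences of -0.02 (95% interval -0.25 to 0.22) and -0.10 (-0.36 to 0.17), so a rise as large as that of CCN2 lay outside both intervals.

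The change of these genes relative to each other is given within each array as a description only, the pairs having been picked with the values known. The log2 signal of CCN2 minus that of CCN1 went from -2.61 and -2.56 with knock-down to -1.36 and -1.39 with overexpression, a shift of 1.21. For ANKRD1 minus CCN1 the shift was 1.74, from -5.86 and -5.84 to -4.20 and -4.02. For ANKRD1 minus CCN2 it was 0.53, from -3.25 and -3.29 to -2.85 and -2.63. Only the shifts can be read, since different probes differ in brightness, and the size of both shifts that involve ANKRD1 depends on the floor of the scale. No test is given, as 2 against 2 arrays could not pass one (the smallest two-sided exact permutation p is 0.333).

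AXL, a receptor tyrosine kinase gene induced by YAP in several cancers, gave unlike values on its 2 probe sets. The brighter (202686_s_at) was at 7.44 in both knock-down arrays and at 7.65 and 7.85 in the overexpressing arrays, a difference of 0.31 ± 0.10 (SE; limma, adjusted p = 0.23). The dimmer (202685_s_at) was at 5.86 and 5.84 against 6.00 and 5.76, which overlap (0.03).

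Most of the differences were small. Of the 22 probe sets, 15 had a difference above 0 and 7 below. The groups did not overlap for 12 higher and 2 lower probe sets, where 18.7% and 24.5% of all probe sets did so. The 7 of 22 at an unadjusted limma p under 0.05 compare with 14.6% of all probe sets. The median difference was 0.15, against -0.02 over all probe sets. Probe sets of the same gene share its RNA, so these counts are not over independent items.

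**Figure D4:**
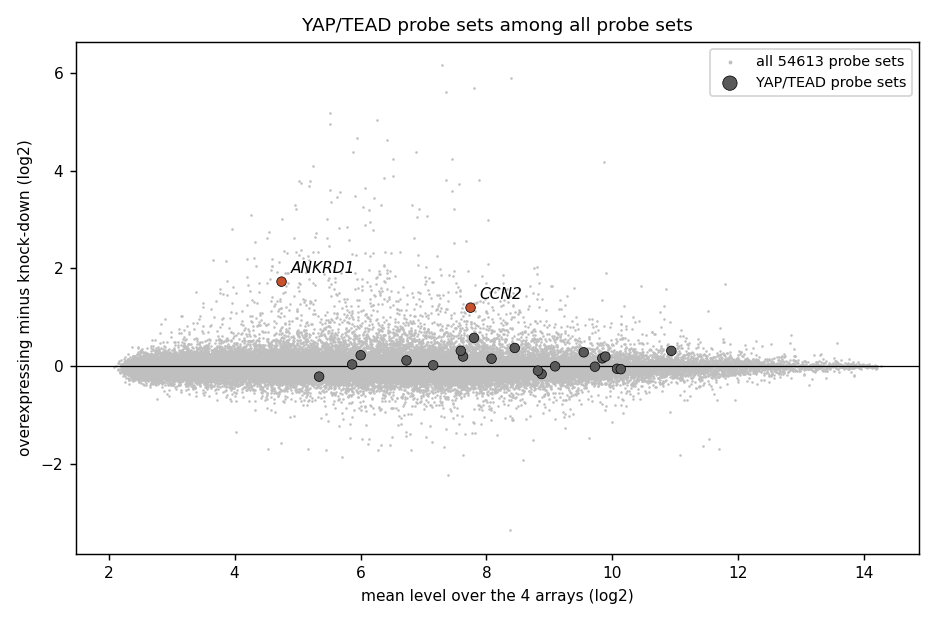
Difference between overexpressing and knock-down arrays (log2) against the mean level over the 4 arrays (log2) for all 54613 probe sets in grey, with the 22 YAP/TEAD probe sets outlined. ANKRD1 and CCN2 (red) lie above the bulk, and the other 20 have smaller differences, from -0.22 to 0.57.

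The rest of the Hippo cascade, from the upstream cadherins and kinases to TEAD2, TEAD3 and the VGLL cofactors, showed no common direction. Of 26 measured genes, counted by the brightest probe set of each, none rose, 1 fell and 25 did not pass in limma. Of all genes, 2.86% passed (1.86% as rises, 0.996% as falls). At an unadjusted p under 0.05 in limma there were 5 of the 26, where 16.4% of all genes were. The median difference was -0.01, against -0.02 over all genes, with 12 above 0 and 14 below. The gene that fell was FAT1, an atypical cadherin upstream of the cascade, at 8.43 and 8.40 with knock-down and at 7.81 and 7.94 with overexpression. Its difference was -0.54 ± 0.09 (SE; limma, adjusted p = 0.047), and the call was lost whichever array was left out and with the replicate number as a block. MOB1A, the LATS cofactor gene, was at 10.61 and 10.60 against 10.59 and 10.61 on its brightest probe set. On 201297_s_at its groups overlapped too (-0.03). Its probe sets 214812_s_at and 201299_s_at were higher without overlap (0.10 and 0.33), as were 18.7% of all probe sets, and did not pass. VGLL4, a competitor of YAP for TEAD, overlapped between groups on its brightest probe set (-0.22). It was higher without overlap on the other (0.29, adjusted p = 0.34 in limma).

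AMOTL1, an angiomotin-like gene related to AMOTL2, was named after its values were seen. Its differences were below 0, whereas that of AMOTL2 was above; whether the genes differ was not tested. Its brightest probe set (225450_at) was at 9.68 and 9.75 with knock-down and at 9.03 and 9.30 with overexpression, a difference of -0.55 (limma, adjusted p = 0.092). All 4 of its probe sets were lower without overlap, as were 24.5% of all probe sets, and 225459_at passed (-0.55, adjusted p = 0.042 in limma). The others differed by -0.41 and -0.18. Among all 82 probe sets of the cascade list, 1 was called higher and 2 lower, against 1.36% and 0.613% of all probe sets. The higher one was a dim probe set of WWC1 (0.54, adjusted p = 0.0499 in limma), while the brightest of WWC1 differed by 0.16.

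None of 15 measured further target genes of YAP and TAZ passed in limma on its brightest probe set (4 at an unadjusted p under 0.05, where 16.4% of all genes were). Their median difference was -0.02, with 7 above 0 and 8 below. PTPN14, a phosphatase gene that is both a target and an inhibitor of YAP, was at 11.11 and 11.10 with knock-down. With overexpression it was at 10.87 and 10.90 (-0.22, limma, adjusted p = 0.28). Its other probe sets were lower without overlap too (-0.51, -0.15 and -0.32), and none passed. Over all probe sets 24.5% were lower and 18.7% higher without overlap. ASAP1, whose probe set was the next brightest on the list, differed by -0.06. IGFBP3, an IGF binding protein gene named after its values were seen, was higher without overlap on both of its probe sets, by 0.53 and 0.38 (limma, adjusted p = 0.11 and 0.14). Of the 49 probe sets of this list 1 was called, against 1.97% of all probe sets. It was 228121_at of TGFB2 (0.63, adjusted p = 0.048 in limma). Every TGFB2 probe set was below the medians of all 4 arrays. The brightest differed by 0.04 with overlapping groups. Without overlap, 220407_s_at and 209909_s_at were higher (0.45 and 0.68) and 209908_s_at was lower (-0.25), none past the threshold.

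**Figure D5:**
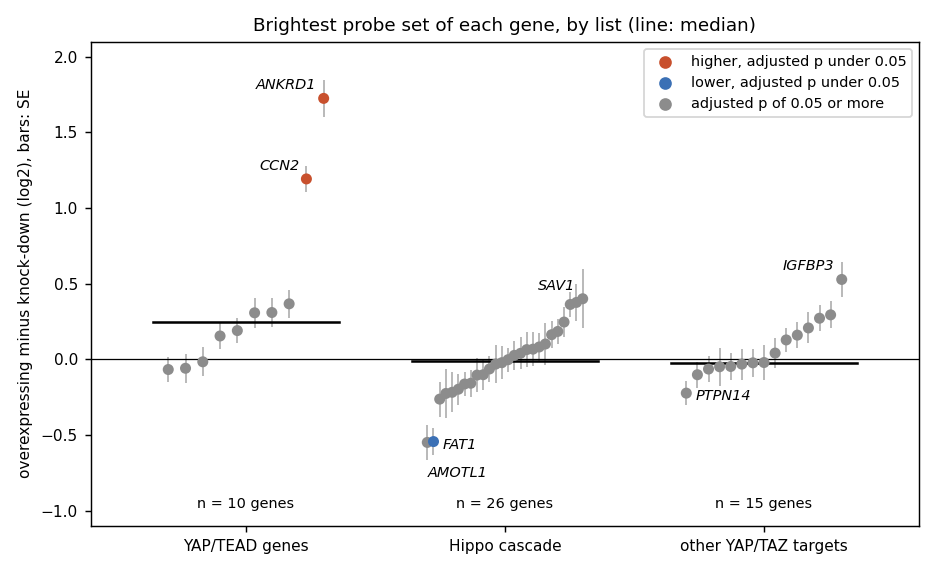
Difference between overexpressing and knock-down arrays (log2, bars are SE) for the brightest probe set of each gene, in the 10 YAP/TEAD genes, 26 Hippo cascade genes and 15 other YAP/TAZ targets, with the median of each list as a line. The medians are 0.25, -0.01 and -0.02; red points rose, the blue point fell and grey points did not pass.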

How the data were processed

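RNA from 4 samples was measured on Affymetrix arrays. The deposited log2 values were made by the authors with RMA (affy), per the submitters' processing notes, which give no versions here. RMA makes the array distributions alike and gives no detection call. Values were used as deposited. The 62 control probe sets were left out. Symbols came from the platform annotation, updated by gene identifier through RefSeq (41037 of 41091 single-symbol probe sets matched).

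All 54613 probe sets were fitted with limma 3.58.1 in R 4.3.3 (lmFit with group as the only term, eBayes, two-sided, Benjamini-Hochberg over all probe sets). The fit had 2 residual degrees of freedom and a prior worth 3.91, and the procedure was tested on simulated data. The number of arrays limits the precision. The members and lists were chosen with earlier results of these data known. List genes were counted by the probe set with the highest mean; 26 of 27 Hippo cascade genes, 15 of 16 other targets and 3 of 4 blood markers were measured in the named probe sets used here. Genes named were all members, those past the threshold and the 2 brightest of each list; others are marked in the text. Alternatives covered moderation, replicate block, scaling, a filter on dim probe sets, gene-level fits, thresholds and leaving out each array.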

Additional observations from a re-analysis of the deposited data

How the results depend on the processing

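The calls on CCN2 and ANKRD1 held under every alternative in which they were fitted and that kept all 4 arrays, with differences of 1.18 to 1.20 and 1.71 to 1.73. Restricted to probe sets above the median level, 1 member probe set passed (CCN2), because ANKRD1 was not among those fitted. Leaving out 1 array left 0 member probe sets past the threshold in each case; CCN2 then gave 1.14 to 1.25 and ANKRD1 1.59 to 1.86. No member fell under any alternative. With the replicate number as a block, 2 member probe sets passed (adjusted p = 0.038 for CCN2 and 0.042 for ANKRD1 in limma) and 0 of the Hippo cascade, among 443 probe sets in all against 1078 without it. Deviations of same-numbered arrays correlated at 0.15, which with 2 pairs does not settle whether the numbers pair the samples.

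The Hippo cascade count of 1 became 3 with an intensity trend and robust moderation (AMOTL1, FAT1 and STK4). It became 2 (AMOTL1 and FAT1) above the median level, with the brightest probe set fitted alone, with the mean of the probe sets and at an adjusted p of 0.10. It was 0 at an adjusted p of 0.01 and whichever array was left out. Other targets went from 0 to 2 with the trend (IGFBP3 and PTPN14) and to 1 with the mean of the probe sets (IGFBP3). The cause of these moves was not tested.

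Differences that did not pass also moved: leaving out 1 array gave 0.06 to 0.37 for TEAD1 1553322_s_at, 0.02 to 0.37 for WWTR1 202132_at, -0.36 to -0.08 for LATS2 230348_at, 0.31 to 0.84 for LATS2 223380_s_at and 0.17 to 0.39 for YAP1 224895_at, none of them past the threshold. Both ends of these ranges came from leaving out one or the other overexpressing array. Signs turned only for probe sets near 0. Centring gave -0.0024 for TEAD1 214600_at. A second quantile normalization gave 0.00072 for CCN1 201289_at and 0.0074 for TEAD4 41037_at. Leaving out 1 array gave -0.040 to 0.066 for TEAD1 214600_at, -0.097 to 0.066 for CCN1 201289_at, -0.204 to 0.010 for CCN1 210764_s_at, -0.099 to 0.081 for TEAD4 41037_at, -0.088 to 0.148 for AXL 202685_s_at and -0.151 to 0.034 for WWTR1 202133_at.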

Other observations

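An antisense RNA named for WWTR1, WWTR1-AS1, had 2 probe sets outside the rule. The brighter (228629_s_at) was at 6.24 and 5.93 with knock-down and at 6.02 and 5.67 with overexpression, overlapping between groups (-0.24; limma, adjusted p = 0.56). The other (1562765_at) was at 5.19 and 5.16 against 5.24 and 4.97. The groups overlapped here too.

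STK4, the gene of the upstream kinase MST1, was named here after its values were seen. Its brightest probe set was at 8.79 and 8.74 with knock-down and at 9.17 and 9.08 with overexpression, a difference of 0.36 ± 0.08 (SE; limma, adjusted p = 0.12). Of the rest, 236259_at, 211085_s_at and 1569791_at were higher without overlap (0.41, 0.37 and 0.52), as were 18.7% of all probe sets. On 205411_at, 223746_at and 243981_at the groups overlapped (0.02, 0.11 and -0.08). No STK4 probe set passed. STK3, the gene of the related kinase MST2, was at 7.78 and 7.82 against 7.66 and 7.62 on its brightest probe set. That difference was -0.16 (limma, adjusted p = 0.43). A dimmer one (211078_s_at) was lower by more, at -0.39 (limma, adjusted p = 0.41).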
